A study of Mus musculus with 38 samples.

Results

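Collagen hydroxylases and the collagen chaperone are the enzymes and the folding factor that act on new collagen chains inside the endoplasmic reticulum. The 8 genes described here were P4ha1, P4ha2, P4ha3, Plod1, Plod2, Plod3, Serpinh1 and Colgalt1, which were taken by symbol from the 55487 genes of each of the deposited tables. All 8 of 8 passed the filter on low counts, both in tumors (16241 genes kept) and in cell lines (13742 genes kept), so each was tested in every comparison.

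P4ha1, P4ha2 and P4ha3 encode the catalytic alpha subunits of prolyl 4-hydroxylase, which work with the beta subunit P4hb and hydroxylate prolines so that the collagen triple helix is stable at body temperature. Plod1, Plod2 and Plod3 encode lysyl hydroxylases, whose product carries the sugars of collagen and shapes the crosslinks between fibrils, Colgalt1 encodes the enzyme that adds galactose to hydroxylysine, and Serpinh1 encodes HSP47, a chaperone specific to collagen. The hydroxylases need oxygen, iron and alpha-ketoglutarate, and several of them are known targets of the hypoxia-inducible factors.

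Bulk RNA was sequenced from omental tumors of 2 mouse models of high-grade serous ovarian cancer (HGSOC) and from the same cells in monoculture. 60577 cells were grown in FVB mice and HGS2 cells in C57BL/6J mice, all of them female and 8 to 9 weeks old when the cells were injected into the peritoneum. Each treated mouse received 3 weekly doses of carboplatin (20 mg/kg) with paclitaxel (10 mg/kg), and each control mouse received the vehicle. Tumors were taken 1 day (TP1), 7 days (TP2) or 21 days (TP3) after the last dose, which was day 36, 42 or 56 after injection in 60577 and day 64, 70 or 84 in HGS2. In 60577 there were 3 control and 3 treated tumors at TP1, 3 control and 4 treated tumors at TP2, and 4 treated tumors at TP3. In HGS2 there were 3 control and 3 treated tumors at TP1, 4 control and 3 treated tumors at TP2, and 4 treated tumors at TP3, of which replicate 1 was left out of the fits because the published tables do not use it. No TP3 controls were analyzed, so TP3 tumors were set against TP2 controls, where treatment and time cannot be told apart. Model, mouse strain and age of the tumor also cannot be told apart between the models, each model is 1 cell line, and nothing in the labels ties a library to more than its group and number. Each cell line had 2 libraries. The expected counts of a tumor summed to between 17839635 and 49299442, and those of a cell line library to between 31633121 and 42461995. The member with the fewest counts was P4ha3, whose lowest value was 49 counts, in HGS2 TP3 treated replicate 2.

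Some libraries stood apart before any comparison was made. 60577 TP2 control replicate 2 had a summed level of 13 hypoxia genes of 6559 CPM (counts scaled to the size of the library), against 2165 and 1979 CPM in the other TP2 controls, and a summed level of 5 endothelial markers of 39.5 CPM, against 316.3 and 264.8 CPM. Values without it are given for each of the 8 genes whose call it changed, for those that fell most and for the list counts described that it moved by more than 1.5 times. In HGS2, 6 genes of pancreatic acinar cells summed to 65252 CPM in TP1 control replicate 3, 125396 CPM in TP2 control replicate 2 and 65796 CPM in TP3 treated replicate 2, and to at most 1549 CPM in every other tumor of either model. The labelled tumor cells were checked against 8 markers of epithelial tumor cells. In 60577 controls these summed to between 1983 and 3288 CPM, with Krt19 as the most abundant, whereas HGS2 controls reached 45.45 to 994.7 CPM, with Wt1 or a keratin as the most abundant (Wt1 at 24.8 to 254.9 CPM). Pax8 was low in both models, below 1 CPM in 60577 controls and at 0 in 5 of 7 HGS2 controls.

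The plot of levels in every library gives an overview of the 8 genes. Serpinh1 was by far the most abundant of them per length of gene, with a mean of 163.2 ± 24.96 RPKM (SD, n = 6; RPKM is CPM per kilobase of exon) in 60577 controls, and P4ha2 and P4ha3 were the least abundant. The median was 7.97 RPKM for P4ha2 and 9.71 RPKM for P4ha3, while the means (10.1 ± 5.82 and 9.36 ± 2.01 RPKM) had the opposite order because of TP2 control replicate 2 (21.9 and 5.50 RPKM). The levels of P4ha1 (41.2 ± 15.6 RPKM), Plod3 (29.0 ± 4.92 RPKM), Plod1 (24.2 ± 7.07 RPKM) and Colgalt1 (22.5 ± 1.56 RPKM) followed, and the ranges of each of these neighbors overlapped. Plod2 (14.8 ± 5.91 RPKM) came next, and its range overlapped those of P4ha2 and P4ha3.

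**Figure D1:**
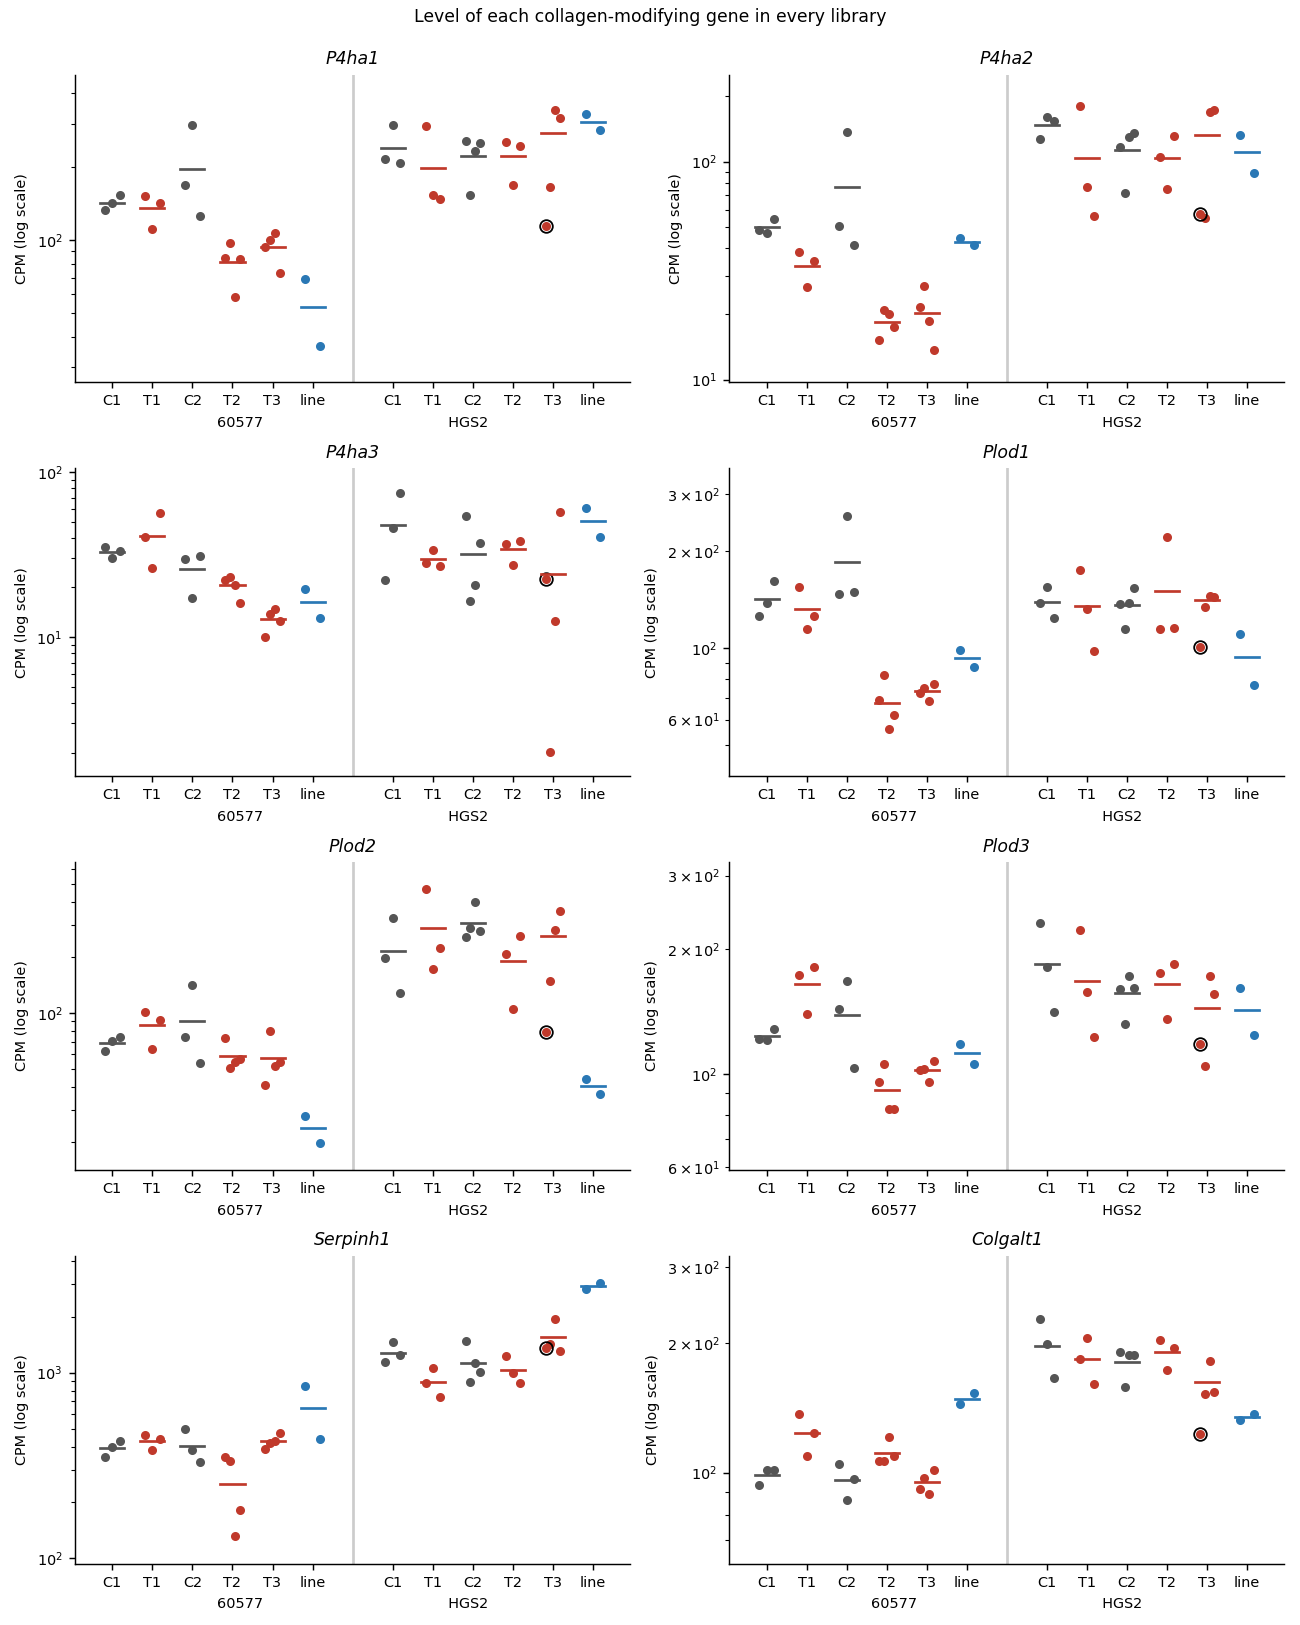
Level of each gene in CPM (log axis) in every library of 60577 (left of the grey line) and HGS2 (right), by control (C, grey), treated (T, red) and time point (1, 2, 3), with the cell lines in blue; horizontal bars are group means and the ringed point is the HGS2 TP3 tumor that was left out of the fits and of its mean. P4ha1, P4ha2 and Plod1 are low in all 8 treated 60577 tumors of TP2 and TP3, while Serpinh1 is higher in every HGS2 tumor than in any 60577 tumor.

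Treatment was followed 1 day after the last dose, at TP1, by small changes in 60577 tumors. Colgalt1 and Plod3 were higher in treated tumors, and the other 6 genes did not pass the test. That makes 2 of 8 genes called at an adjusted p below 0.05 (edgeR's quasi-likelihood test), both higher, beside 33.3% of all genes called in either direction and 17.1% called higher. Plod3 measured 173.3, 139.4 and 181.3 CPM in treated replicates 1 to 3 and 121.6, 120.8 and 128.3 CPM in controls. Colgalt1 measured 136.9, 109.4 and 123.9 CPM in treated tumors and 93.6, 101.4 and 101.3 CPM in controls. For both genes every treated tumor lay above every control. The share of all genes whose groups do not overlap is not given, so a lack of overlap is only described here and below. In bulk RNA, fewer or more cells of a type and less or more RNA in each cell cannot be told apart. The log2 fold change was 0.42 (SE 0.16, adjusted p = 0.0482) for Plod3 and 0.33 (SE 0.10, adjusted p = 0.0204) for Colgalt1. Neither was stable when a tumor was left out: the Plod3 call was lost without any one of the 3 controls or without treated replicate 1 or 3 (adjusted p = 0.0850 to 0.160), and the Colgalt1 call without control replicate 1 or treated replicate 1 or 3 (adjusted p = 0.0531 to 0.103). P4ha2, at 38.5, 26.5 and 34.9 CPM in treated tumors and 48.7, 47.0 and 54.3 CPM in controls, did not overlap between the groups either, with a log2 fold change of -0.58 (SE 0.35, adjusted p = 0.222), and it was called in a fit of the compared groups only (-0.56, adjusted p = 0.0202).

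By TP2, 7 days after the last dose, P4ha1, P4ha2, Plod1, Plod3 and Serpinh1 had fallen in 60577 tumors. P4ha2 fell most, to 0.237 times the control level, followed by Plod1 (0.362) and P4ha1 (0.408), and then Serpinh1 (0.615) and Plod3 (0.657). That is 5 of 8 genes called, all lower, in a comparison in which 58.4% of all genes were called in either direction and 29.2% were called lower. The median log2 fold change was -0.67 over the 8 genes and 0.03 over all genes tested.

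P4ha1, the more abundant of the alpha subunits, measured 84.6, 96.9, 58.5 and 83.6 CPM in the 4 treated TP2 tumors and 167.6, 296.3 and 125.2 CPM in the controls. P4ha2 measured 15.2, 20.8, 19.9 and 17.4 CPM in treated tumors and 50.8, 136.8 and 41.6 CPM in controls. Plod1, the lysyl hydroxylase that acts on the helical part of collagen, measured 69.1, 82.6, 56.3 and 62.1 CPM in treated tumors and 147.1, 258.0 and 149.4 CPM in controls. For these 3 genes each treated tumor was below each control, and control replicate 2 was the highest of all. The log2 fold changes were -1.29 (SE 0.24, adjusted p = 4.49e-04) for P4ha1, -2.08 (SE 0.33, adjusted p = 1.24e-04) for P4ha2 and -1.47 (SE 0.19, adjusted p = 2.42e-05) for Plod1. Without control replicate 2 they were smaller, at -0.86, -1.34 and -1.14, and still called (adjusted p = 0.00282, 2.54e-04 and 6.37e-05).

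Plod3, which is both a lysyl hydroxylase and a glycosyltransferase, measured 95.8, 105.9, 82.7 and 82.8 CPM in treated TP2 tumors and 143.9, 167.8 and 103.7 CPM in controls, and Serpinh1 measured 353.2, 333.1, 131.3 and 183.0 CPM in treated tumors and 500.4, 383.0 and 329.6 CPM in controls. In both, 1 or more treated tumors reached above the lowest control. The fall of Plod3 was -0.61 (SE 0.14, adjusted p = 0.00253; -0.44, adjusted p = 0.0221 without control replicate 2) and that of Serpinh1 was -0.70 (SE 0.26, adjusted p = 0.0317) on the log2 scale. Serpinh1 was not called without control replicate 1 (-0.52, adjusted p = 0.141), control replicate 2 (-0.73, adjusted p = 0.0555), treated replicate 3 (-0.49, adjusted p = 0.0630) or treated replicate 4 (-0.58, adjusted p = 0.0939). Among the genes that were not called, Plod2 had a log2 fold change of -0.64 (SE 0.29, adjusted p = 0.0697) and P4ha3 one of -0.34 (SE 0.24, adjusted p = 0.228). Plod2 depended on single tumors: its log2 fold change was -0.13 (adjusted p = 0.685) without control replicate 2, the highest at 142.5 CPM, and it was called without control replicate 3 (-0.91, adjusted p = 0.0135) or treated replicate 1 (-0.79, adjusted p = 0.0388). Colgalt1 measured 106.5, 106.6, 120.7 and 109.4 CPM in treated tumors and 105.0, 86.2 and 96.9 CPM in controls, a log2 fold change of 0.20 (SE 0.09, adjusted p = 0.0868) in groups that did not overlap, and it was called higher without control replicate 1 (0.26, adjusted p = 0.0491).

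**Figure D2:**
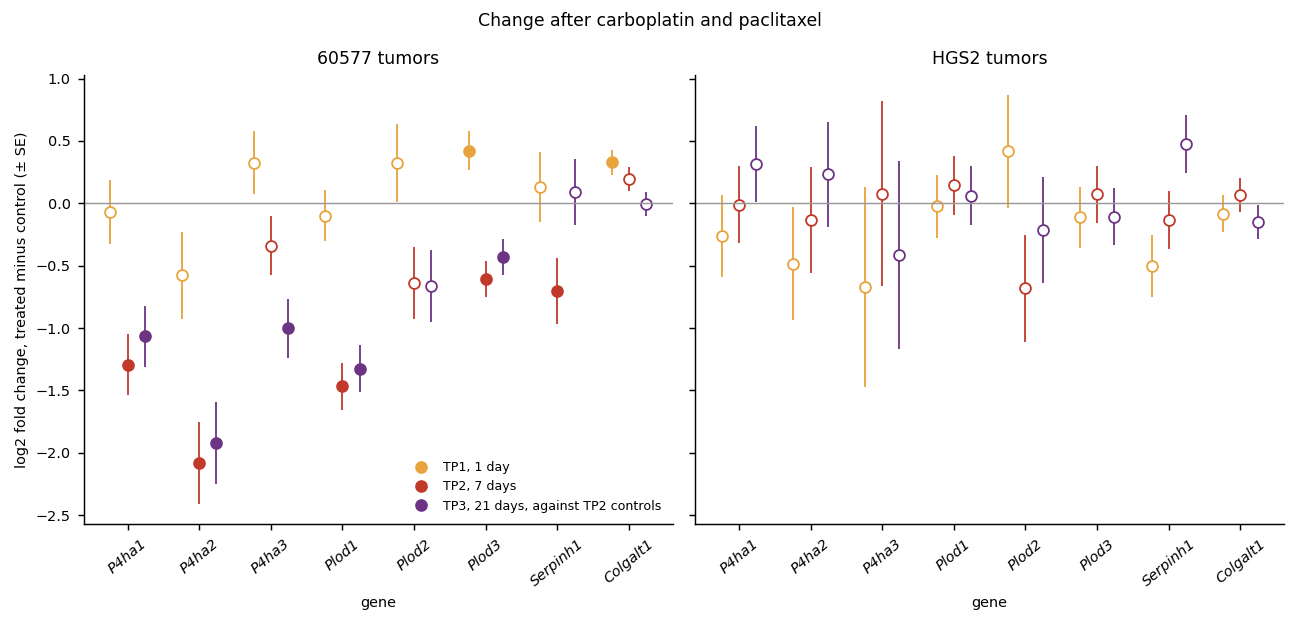
Log2 fold change of each gene in treated against control tumors, with bars of 1 standard error, at TP1, TP2 and TP3 in 60577 (left) and HGS2 (right); filled points have an adjusted p below 0.05 and open points do not. In 60577 the points of P4ha1, P4ha2 and Plod1 lie below -1 at TP2 and TP3, and in HGS2 no point is filled.

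At TP2, P4ha1, P4ha2 and Plod1 fell most, and they were low at TP2 and TP3 together with a list of hypoxia genes. The sequences before the start of these 3 genes are shown for that reason. Each is the 250 bases just before the gene start given by RefSeq (GRCm38.p6), with its capitals marking the core of the hypoxia response element, ACGTG or GCGTG, read on either strand (as CACGT or CACGC when it lies on the other strand). P4ha1 lies on the plus strand at chr10:59323046-59323295, P4ha2 on the plus strand at chr11:54100674-54100923 and Plod1 on the minus strand at chr4:147936777-147937026. None of these windows overlaps an exon annotated in GENCODE M21, although a longer form of P4ha2 starts upstream of its window, which is then intronic to that form.
P4ha1: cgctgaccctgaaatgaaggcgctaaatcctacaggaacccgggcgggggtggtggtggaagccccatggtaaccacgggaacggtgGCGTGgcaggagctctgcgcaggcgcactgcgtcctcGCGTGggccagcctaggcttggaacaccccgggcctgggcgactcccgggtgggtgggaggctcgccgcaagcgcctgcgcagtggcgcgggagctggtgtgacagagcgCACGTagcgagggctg
P4ha2: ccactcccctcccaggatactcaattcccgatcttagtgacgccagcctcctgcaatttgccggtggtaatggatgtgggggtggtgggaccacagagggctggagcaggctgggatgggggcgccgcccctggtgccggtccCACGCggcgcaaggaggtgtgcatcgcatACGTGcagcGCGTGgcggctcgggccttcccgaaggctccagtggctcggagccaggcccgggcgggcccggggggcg
Plod1: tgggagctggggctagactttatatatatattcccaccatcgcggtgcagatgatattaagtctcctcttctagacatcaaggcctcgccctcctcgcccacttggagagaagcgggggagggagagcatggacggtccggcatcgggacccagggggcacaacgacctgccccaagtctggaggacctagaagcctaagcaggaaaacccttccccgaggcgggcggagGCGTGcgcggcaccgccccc

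The window of P4ha1 holds 3 cores, at -163, -126 and -16 from the start, that of P4ha2 holds 3, at -107, -78 and -69, and that of Plod1 holds 1, at -20. Of 32851 windows of the same length before all starts in the RefSeq table, 38.6% hold at least 1 core and 6.58% hold at least 3. A window was found for 7 of the 8 genes. Plod3 holds 4 cores in its window, which it shares with an exon of Znhit1 on the opposite strand, Serpinh1 holds 1 and P4ha3 holds 0, and the windows of Colgalt1, which has 2 starts, hold 2 and 1. None of the cores lies in the palindrome CACGTG, and a match says only that these letters are there.

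By TP3, 21 days after the last dose, P4ha1, P4ha2 and Plod1 were still below the TP2 controls in 60577 tumors, P4ha3 had joined them, and Serpinh1 was back in the range of the controls. The TP3 and TP2 comparisons share these controls. At TP3, 5 of 8 genes were called, all lower (P4ha1, P4ha2, P4ha3, Plod1 and Plod3), beside 51.4% of all genes in either direction and 26.0% lower. P4ha1 measured 93.5, 99.9, 107.1 and 73.1 CPM, P4ha2 measured 21.6, 26.8, 18.5 and 13.7 CPM, and Plod1 measured 72.9, 75.3, 68.4 and 77.3 CPM. All of these tumors were below all of the TP2 controls. Their log2 fold changes against the TP2 controls were -1.07 (SE 0.24, adjusted p = 0.00180), -1.92 (SE 0.33, adjusted p = 1.92e-04) and -1.33 (SE 0.19, adjusted p = 4.07e-05), and without control replicate 2 they were -0.63 (adjusted p = 0.0172), -1.18 (adjusted p = 5.02e-04) and -0.997 (adjusted p = 1.17e-04).

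P4ha3, another alpha subunit, measured 9.98, 13.9, 14.9 and 12.54 CPM at TP3, 22.1, 23.2, 20.8 and 16.1 CPM in treated tumors at TP2, and 29.6, 17.2 and 30.8 CPM in TP2 controls. Here the TP3 tumors lay below all the others, and control replicate 2 was the lowest control, opposite to P4ha1 and P4ha2. The log2 fold change against the controls was -1.001 (SE 0.24, adjusted p = 0.00248), although it was not called in one fit of both models (-1.01, adjusted p = 0.156). Without control replicate 2 it was -1.22 (adjusted p = 6.73e-04), a larger fall than those of P4ha1, P4ha2 and Plod1 in that fit. Plod3 had a log2 fold change of -0.43 (SE 0.14, adjusted p = 0.0217), which was not called without TP2 control replicate 1 (-0.40, adjusted p = 0.0615), TP2 control replicate 2 (-0.26, adjusted p = 0.163) or TP3 treated replicate 3 (-0.40, adjusted p = 0.0537), nor with an offset for gene length and GC content (-0.23, adjusted p = 0.235). Plod2, at -0.66 (SE 0.29, adjusted p = 0.0677), was called only without TP2 control replicate 3 (-0.93, adjusted p = 0.0131) or TP3 treated replicate 2 (-0.88, adjusted p = 0.0222) and was at -0.15 (adjusted p = 0.653) without TP2 control replicate 2. Serpinh1 measured 389.3, 419.8, 428.2 and 473.9 CPM at TP3 (log2 fold change 0.09, SE 0.26, adjusted p = 0.801).

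Between the treated groups themselves, the fall from TP1 to TP2 covered P4ha1, P4ha3, Plod1, Plod3 and Serpinh1, which is 5 of 8 genes, all lower, beside 19.3% of all genes in either direction and 9.86% lower. Plod1 (log2 fold change -0.98, SE 0.19, adjusted p = 0.00572) and Plod3 (-0.85, SE 0.14, adjusted p = 0.00344) were called in every fit that left out 1 tumor. The calls of P4ha1 (-0.75, SE 0.24, adjusted p = 0.0434), P4ha3 (-1.001, SE 0.23, adjusted p = 0.0130) and Serpinh1 (-0.78, SE 0.26, adjusted p = 0.0484) were not. P4ha1 was lost without TP1 treated replicate 1 or 3 or TP2 treated replicate 3 or 4 (adjusted p = 0.0860 to 0.165), P4ha3 without TP1 treated replicate 1 or 3 (adjusted p = 0.0576 and 0.0714), and Serpinh1 without any one of the 3 TP1 tumors or without TP2 treated replicate 3 or 4 (adjusted p = 0.0591 to 0.159). P4ha2 was not called (-0.88, SE 0.33, adjusted p = 0.0696), although its groups did not overlap. It was called by the DESeq2 Wald test (-0.90, adjusted p = 0.0337) and in a fit of the compared groups only (-0.885, adjusted p = 0.0465). From TP2 to TP3, 2 of 8 genes were called, beside 35.0% of all genes. Serpinh1 rose by 0.79 on the log2 scale (SE 0.25, adjusted p = 0.0243), with all 4 TP3 tumors above all 4 TP2 tumors, and P4ha3 fell by 0.66 (SE 0.22, adjusted p = 0.0332). Serpinh1 was not called without TP2 treated replicate 3 or 4 or TP3 treated replicate 4 (adjusted p = 0.0561 to 0.0765), and P4ha3 was called in only 2 of 8 fits that left out a tumor, those without TP2 treated replicate 4 or TP3 treated replicate 3. Between the control groups of TP1 and TP2, 0 of 8 genes and 0% of all genes were called by edgeR, while 1501 genes had an unadjusted p below 0.05 and the DESeq2 Wald test called 107 genes. None of the 8 had an unadjusted p below 0.05 there, and Plod1 had the lowest (log2 fold change 0.39, SE 0.20, adjusted p = 0.582 by edgeR). Without TP2 control replicate 2, edgeR called 37 genes (0.228% of all genes) between these controls, among them all 6 pancreatic acinar genes, which were higher at TP2 (median log2 fold change 12.35), and 0 of the 8 genes. The acinar genes summed to 1450, 1.18 and 204.4 CPM in the TP2 controls and to at most 0.326 CPM in the TP1 controls.

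With the further limit of an absolute log2 fold change above 1, the counts of called genes were smaller. In 60577 they were 0 of 8 at TP1 (15.6% of all genes), 3 at TP2 (24.4%), 4 at TP3 (24.4%), 1 between treated TP1 and TP2 tumors (6.02%) and 0 between treated TP2 and TP3 tumors (7.87%). The 3 genes at TP2 were P4ha1, P4ha2 and Plod1, and P4ha3 joined them at TP3 with a value just past the limit (-1.001). Without TP2 control replicate 2 the counts were 2 at TP2 (P4ha2 and Plod1), beside 21.1% of all genes, and 2 at TP3 (P4ha2 and P4ha3), beside 22.2%.

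The collagen chains that these enzymes act on were described by the same comparisons. At TP1 in 60577, 7 of 16 collagen chain genes were higher and 0 lower (median log2 fold change 0.75, against -0.002 over all genes), with Col3a1, a fibrillar collagen, at 1.89 (SE 0.26, adjusted p = 0.000110) and Col5a3 at 1.39 (SE 0.48, adjusted p = 0.0377). Col1a1, the main chain of type I collagen, was higher as well, at 1.29 (SE 0.29, adjusted p = 0.00364). At TP2, when P4ha1, P4ha2 and Plod1 were low, 2 chains were higher and 3 lower (median -0.09), and without control replicate 2 the counts were 1 higher and 4 lower (median -0.197). Col6a3 was among the higher, at 1.03 (SE 0.16, adjusted p = 9.36e-05), Col12a1 among the lower, at -0.82 (SE 0.34, adjusted p = 0.0492), and Col1a1 stood at 0.15 (SE 0.27, adjusted p = 0.655). At TP3, 2 were higher and 2 lower (median 0.02), or 1 higher and 2 lower without that control (median -0.173), with Col11a1 at -1.40 (SE 0.52, adjusted p = 0.0341) and Col15a1 at 1.29 (SE 0.39, adjusted p = 0.0110), and Col1a1 was at -0.59 (SE 0.27, adjusted p = 0.0768). Between the treated tumors of TP1 and TP2, however, 9 of 16 chains were lower and 0 higher (median -1.06), beside 5 of 8 lower and 0 higher among the hydroxylases and the chaperone (median -0.82). The difference between the lists was not tested.

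Among 14 other genes of collagen modification and folding, 3 were higher and 1 lower at TP1 (median 0.19), 1 higher and 5 lower at TP2 (median -0.21; 1 higher and 3 lower without control replicate 2), and 3 higher and 4 lower at TP3 (median -0.05). P4hb, the beta subunit without which the alpha subunits are inactive, went with P4ha1 and P4ha2, with -0.43 (SE 0.26, adjusted p = 0.212) at TP1, -1.74 (SE 0.24, adjusted p = 4.23e-05) at TP2 and -1.79 (SE 0.24, adjusted p = 2.51e-05) at TP3. P4hb measured 669.5, 809.3, 424.8 and 453.0 CPM in treated TP2 tumors and 1583, 2793 and 1480 CPM in controls. Tmem38b, an endoplasmic reticulum channel needed for collagen assembly, at 1.58 (SE 0.19, adjusted p = 4.82e-05), and the prolyl hydroxylase family member P3h3, at 1.10 (SE 0.11, adjusted p = 1.27e-05), led the changes of TP1. Creb3l1, a transcription factor of collagen secretion, was lower at TP2, at -0.99 (SE 0.31, adjusted p = 0.0140), and P3h2 was higher at TP3, at 1.32 (SE 0.39, adjusted p = 0.0108). Of 12 genes of procollagen processing and crosslinking, 3 were higher and 0 lower at TP1 (median 0.67), 3 higher and 3 lower at TP2 (median 0.37), and 4 higher and 4 lower at TP3 (median -0.22). Lox, the lysyl oxidase that crosslinks hydroxylated collagen, was at -0.10 (SE 0.37, adjusted p = 0.870) at TP1, fell at TP2, with -1.89 (SE 0.34, adjusted p = 0.000358), and was lower at TP3, at -1.39 (SE 0.34, adjusted p = 0.00316). The procollagen proteinase Tll1 rose at each time, with 1.81 (SE 0.55, adjusted p = 0.0196) at TP1, 2.81 (SE 0.55, adjusted p = 0.000651) at TP2 and 2.87 (SE 0.55, adjusted p = 0.000518) at TP3. Bmp1, a proteinase of the same family, was at 1.04 (SE 0.24, adjusted p = 0.00381) at TP1, and Pcolce2, which enhances it, at 1.93 (SE 0.46, adjusted p = 0.00251) at TP3.

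Some of the hypoxia genes were lower at TP1, and most of them at TP2 and TP3. Of the 13 in the list, which holds none of the 8 genes, 4 were lower at TP1 (median -0.49), 13 at TP2 (median -2.17) and 11 at TP3 (median -2.22), and 0 were higher at any of these times. At TP2, Ero1l, an oxidase of the endoplasmic reticulum, was at -3.17 (SE 0.54, adjusted p = 0.000211) and the carbonic anhydrase Car9 at -3.15 (SE 0.36, adjusted p = 1.13e-05). Car9 was also among the genes that led the list at TP1, at -2.64 (SE 0.40, adjusted p = 0.000189), with Ndrg1 at -1.17 (SE 0.32, adjusted p = 0.0120), and at TP3, at -4.54 (SE 0.39, adjusted p = 4.25e-07), with Egln3, an oxygen-sensing prolyl hydroxylase of the hypoxia-inducible factors, at -3.52 (SE 0.36, adjusted p = 2.44e-06). The summed level of the list was 1683, 1069 and 1219 CPM in treated TP1 tumors, below every TP1 control (2163, 1937 and 2169 CPM), although Slc2a1, a glucose transporter of the list, was above the controls in 2 of these 3 tumors. It was 745.9, 812.1, 632.6 and 663.3 CPM in treated TP2 tumors and 758.8, 806.7, 736.2 and 721.4 CPM at TP3, below every control of TP1 and of TP2. Without TP2 control replicate 2, 11 hypoxia genes were lower at TP2 (median -1.496) and 10 at TP3 (median -1.47). The plot of levels beside the hypoxia genes shows P4ha1, P4ha2 and Plod1 in each tumor.

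**Figure D3:**
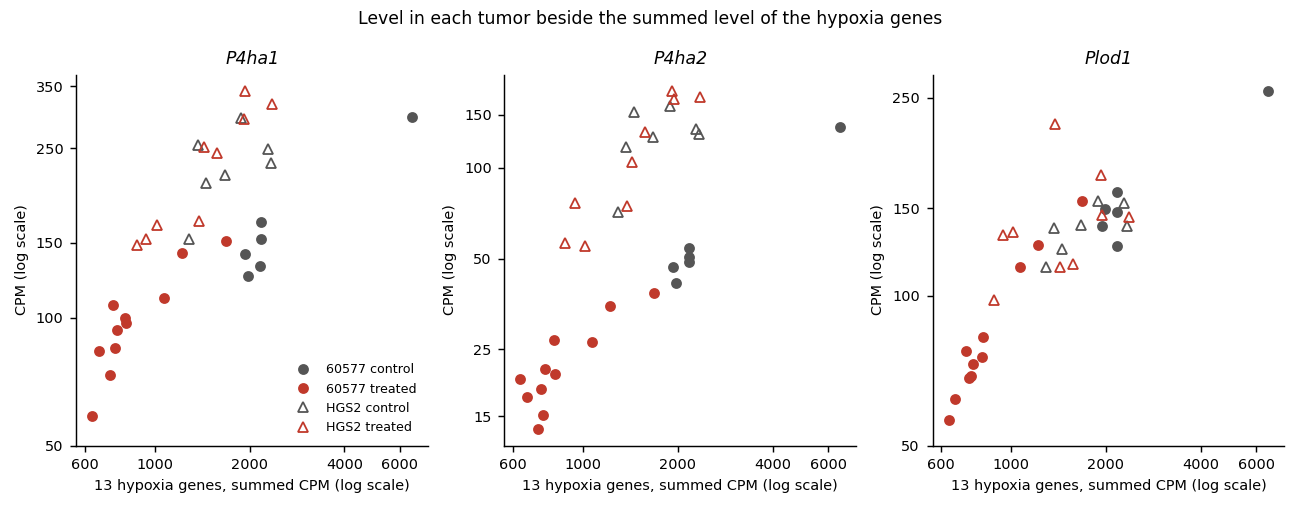
CPM of P4ha1, P4ha2 and Plod1 (y axis) against the summed CPM of the 13 hypoxia genes (x axis) in each of 33 tumors, both axes logarithmic; filled circles are 60577 and open triangles HGS2, grey for control and red for treated. The 8 treated 60577 tumors of TP2 and TP3 sit at the lower left, and 60577 TP2 control replicate 2 is the point at the far right.

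Other cell type markers moved with treatment in 60577 as well. All 7 of 7 tested markers of epithelial tumor cells were lower at TP1, TP2 and TP3 (medians -1.84, -2.42 and -2.69), and their summed level was 508.3 to 868.4 CPM in treated tumors at TP1, 530.8 to 876.1 CPM at TP2 and 388.5 to 493.4 CPM at TP3. Of 9 fibroblast markers, among which Col1a1 was the most abundant in every treated TP1 and TP2 tumor, 5 were higher and 0 lower at TP1, 5 higher and 1 lower at TP2 (2 higher and 1 lower without control replicate 2) and 7 higher and 1 lower at TP3. The 6 markers of dividing cells were all lower at each time (medians -1.69, -2.20 and -2.83), and of 6 adipocyte markers, with Plin4 as the most abundant in each treated tumor, 5 were higher at TP1 and 6 at TP2 and at TP3 (medians 5.39, 5.52 and 8.28). Of 5 T cell markers 4 were higher at TP1 and 5 at TP2 and at TP3, and of 5 B cell markers 0 at TP1 and 5 at TP2 and at TP3. Of 4 mesothelial markers 4, 3 and 3 were lower at TP1, TP2 and TP3. These markers were not particular to mesothelial cells, since the tumor cells expressed them in monoculture. They summed to 3019 and 3355 CPM in the 60577 cell line and to 1504 to 2132 CPM in TP2 controls. Of 4 tested neutrophil markers 4 were higher at TP1 and 3 were lower at TP2 and at TP3 (2 at each without control replicate 2). Of 5 macrophage markers, with Csf1r as the most abundant in every tumor, 2 were higher at TP1, 2 at TP2 and 4 at TP3 (2 at TP3 without control replicate 2), and they summed to 885.9 to 992.8 CPM at TP3 and to 277.7 to 585.6 CPM in TP2 controls. Of 5 endothelial markers 0 were called at TP1 and at TP2 and 1 was higher at TP3, when they summed to 318.2 to 465 CPM against 39.5 to 316.3 CPM in TP2 controls. Without control replicate 2, 1 endothelial marker was lower at TP2, and 2 were higher and 1 lower at TP3. All 6 pancreatic acinar markers were lower at TP2 (median -7.05) and higher in treated tumors of TP3 than of TP2 (median 5.09), with sums of 0.963 to 13.83 CPM in treated TP2 tumors and 48.67 to 392.1 CPM at TP3; 0 of 6 were called at TP1 and 0 at TP3, where 4 were lower without control replicate 2. The part of these shifts in the values of the 8 genes was not tested.

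In HGS2 tumors none of the 8 genes passed the test after treatment. The counts were 0 of 8 in each of 6 comparisons (treated against control at TP1, at TP2 and for TP3 against TP2 controls, treated TP2 against TP1, treated TP3 against TP2, and control TP2 against TP1), and edgeR called 0% of all genes in each of them. The unadjusted p was below 0.05 for 413, 1233, 406, 152, 1690 and 569 genes in these comparisons, and the DESeq2 Wald test called 1, 9, 5, 1, 144 and 8 genes. Of the 8 genes, only Serpinh1 between treated TP2 and TP3 tumors had an unadjusted p below 0.05 (log2 fold change 0.61, SE 0.25, adjusted p = 0.443 by edgeR), where the 3 TP3 tumors in the fit (1428, 1953 and 1309 CPM) lay above the 3 TP2 tumors (1237, 991.4 and 878.5 CPM). The tumor left out, TP3 replicate 1, measured 1358 CPM. At TP1, Serpinh1 was below every control in every treated tumor (883.5, 1056 and 741.3 CPM against 1144, 1455 and 1246 CPM; log2 fold change -0.50, SE 0.25, adjusted p = 0.999).

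P4ha1 measured 252.4, 168.4 and 243.5 CPM in treated HGS2 tumors at TP2 and 254.7, 152.7, 231.4 and 249.7 CPM in controls. P4ha2 measured 104.7, 74.6 and 131.1 CPM in treated tumors and 117.2, 71.5, 129.1 and 134.9 CPM in controls. Plod1 measured 114.5, 221.6 and 115.8 CPM in treated tumors and 136.9, 114.3, 138.4 and 153.7 CPM in controls. The groups overlapped for all 3 genes, with log2 fold changes of -0.01 (SE 0.31) for P4ha1, -0.13 (SE 0.42) for P4ha2 and 0.14 (SE 0.24) for Plod1, all at an adjusted p of 0.882 or more. The lowest control for all 3 genes was replicate 2, the library with the most pancreatic acinar RNA, as it was for Colgalt1 (157.9 CPM). P4ha3 had the largest standard errors of the 8 in HGS2 (0.74 to 0.80 on the log2 scale) and ranged from 2.03 CPM in TP3 treated replicate 2, another of the libraries rich in acinar genes, to 75.0 CPM in TP1 control replicate 3, also rich in them. At TP3, the treated tumors spread widely, with P4ha2 at 55.1 CPM in replicate 2 and at 168.5 and 171.8 CPM in replicates 3 and 4, and Plod2 at 148.8, 279.7 and 355.2 CPM in the same tumors.

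The response at TP2 was then compared between the models in 1 fit of both. The treated minus control difference was higher in HGS2 than in 60577 for P4ha1, P4ha2 and Plod1, which is 3 of 8 genes, beside 10.3% of all genes in either direction and 6.00% higher. The difference of the log2 fold changes was 1.60 for Plod1 (SE 0.30, adjusted p = 0.00437), 1.93 for P4ha2 (SE 0.55, adjusted p = 0.0281) and 1.27 for P4ha1 (SE 0.40, adjusted p = 0.0409). All 3 also passed the limit of an absolute value above 1, beside 6.90% of all genes. Only the Plod1 call held in each of the 14 fits that left out 1 tumor. Without 60577 TP2 control replicate 2 the values were 1.28 for Plod1 (adjusted p = 0.0263), 1.21 for P4ha2 (adjusted p = 0.174) and 0.85 for P4ha1 (adjusted p = 0.199). That fit called 459 of all 16241 genes (2.83%), in place of 1678. With all 17 HGS2 tumors in the fit P4ha1 was not called (1.27, adjusted p = 0.0753), while P4ha2 and Plod1 were, beside 1054 of all 16300 genes. P4ha2 was also lost without HGS2 TP2 control replicate 2, HGS2 TP2 treated replicate 1 or 3, or 60577 TP2 treated replicate 4 (adjusted p = 0.0519 to 0.0721), and P4ha1 without HGS2 TP2 control replicate 2 or 4, HGS2 TP2 treated replicate 1 or 3, or 60577 TP2 treated replicate 3 or 4 (adjusted p = 0.0519 to 0.0974). In this comparison, 7 of 13 hypoxia genes were higher and 0 lower (median 1.93, against -0.05 over all genes). Pgk1 was at 2.90 (SE 0.55, adjusted p = 0.00437) and Slc2a1 at 2.73 (SE 0.64, adjusted p = 0.0115). In the 60577 TP2 controls Slc2a1 measured 88.1, 381.3 and 63.5 CPM, highest in replicate 2. Without that replicate only 1 of 13 hypoxia genes was higher (median 0.999), beside 2.83% of all genes in either direction. P4hb, at 1.22 (SE 0.35, adjusted p = 0.0294), and Lox, at 1.92 (SE 0.51, adjusted p = 0.0206), differed in the same direction, while Col1a1 was at -0.12 (SE 0.69, adjusted p = 0.924). Without 60577 TP2 control replicate 2, 0 of 14 and 0 of 12 genes of the lists of P4hb and Lox were called, beside 2.83% of all genes. At TP1, 0 of 8 genes differed between the models by edgeR, beside 1.77% of all genes, and only Colgalt1 had an unadjusted p below 0.05 (difference -0.43, SE 0.17, adjusted p = 0.173).

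Vehicle-treated tumors of the models differed in the level of these genes. In control tumors, Serpinh1, Colgalt1, Plod2, P4ha2 and Plod3 were higher in HGS2 than in 60577, which is 5 of 8 genes, beside 51.5% of all genes in either direction and 28.1% higher. Serpinh1 ranged from 889.9 to 1489 CPM (median 1144) in 7 HGS2 controls and from 329.6 to 500.4 CPM (median 389.8) in 6 60577 controls. Plod2, the lysyl hydroxylase of the ends of the collagen chain, ranged from 128.3 to 398.3 CPM (median 277.7) in HGS2 and from 53.4 to 142.5 CPM (median 72.3) in 60577. Colgalt1 ranged from 157.9 to 226.7 CPM (median 187.7) in HGS2 and from 86.2 to 105.0 CPM (median 99.1) in 60577. The models did not overlap for Serpinh1 and Colgalt1 and overlapped by 1 tumor of each for Plod2, the HGS2 TP1 control replicate 3 and the 60577 TP2 control replicate 2. The log2 differences were 1.59 for Serpinh1 (SE 0.19, adjusted p = 1.77e-07), 1.71 for Plod2 (SE 0.28, adjusted p = 1.99e-05), 0.96 for Colgalt1 (SE 0.08, adjusted p = 1.18e-09), 1.06 for P4ha2 (SE 0.29, adjusted p = 0.00357) and 0.38 for Plod3 (SE 0.14, adjusted p = 0.0290). The Plod3 call was lost without HGS2 TP1 control replicate 1, HGS2 TP2 control replicate 3, 60577 TP1 control replicate 1 or 2, or 60577 TP2 control replicate 3 (adjusted p = 0.0503 to 0.113).

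P4ha1 was at 0.46 in the same comparison (SE 0.21, adjusted p = 0.0633) and was called without 60577 TP2 control replicate 2 (0.68, adjusted p = 0.00816), without HGS2 TP2 control replicate 2 (0.53, adjusted p = 0.0403) and without the libraries rich in acinar genes (0.55, adjusted p = 0.0272). Plod1 (-0.24, SE 0.16, adjusted p = 0.216) and P4ha3 (0.42, SE 0.41, adjusted p = 0.411) were not called. An absolute log2 difference above 1 was reached by 3 of 8 genes, Plod2, Serpinh1 and P4ha2, beside 22.0% of all genes. Of the collagen chains 13 of 16 were higher in HGS2 and 1 lower (median 1.89, beside 0.71 for the 8 genes and 0.05 over all genes; the difference between the lists was not tested), with Col11a1 at 6.20 (SE 0.60, adjusted p = 5.43e-09) and Col1a1 at 3.25 (SE 0.39, adjusted p = 2.55e-07). Of the other modification and folding genes 9 of 14 were higher and 1 lower (median 0.71), led by Creb3l1, at 1.57 (SE 0.23, adjusted p = 5.1e-06), and the collagen prolyl isomerase Fkbp10, at 1.45 (SE 0.16, adjusted p = 7.3e-08), while P4hb was at -0.32 (SE 0.18, adjusted p = 0.149). Of the processing and crosslinking genes 11 of 12 were higher (median 1.25), but 7 of 12 without 60577 TP2 control replicate 2, with Pcolce2 at 2.98 (SE 0.36, adjusted p = 2.66e-07), Adamts3 at 2.78 (SE 0.42, adjusted p = 6.23e-06) and Lox at 1.95 (SE 0.28, adjusted p = 2.49e-06). Fibroblast markers summed to 12507 to 74837 CPM in HGS2 controls and to 2943 to 4874 CPM in 60577 controls. Col1a1 was the most abundant in both, is also among the collagen chains, and measured 13409 and 7257 CPM in HGS2 cells in monoculture. Of the fibroblast markers 8 of 9 were higher in HGS2 controls. All 5 macrophage markers were higher as well (782.2 to 1384 CPM in sum in HGS2 and 277.7 to 585.6 CPM in 60577, with Csf1r as the most abundant), as were all 6 pancreatic acinar markers, and 6 of 7 tested epithelial markers were lower (median -2.86). Their part in the difference of the 8 genes was not tested.

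**Figure D4:**
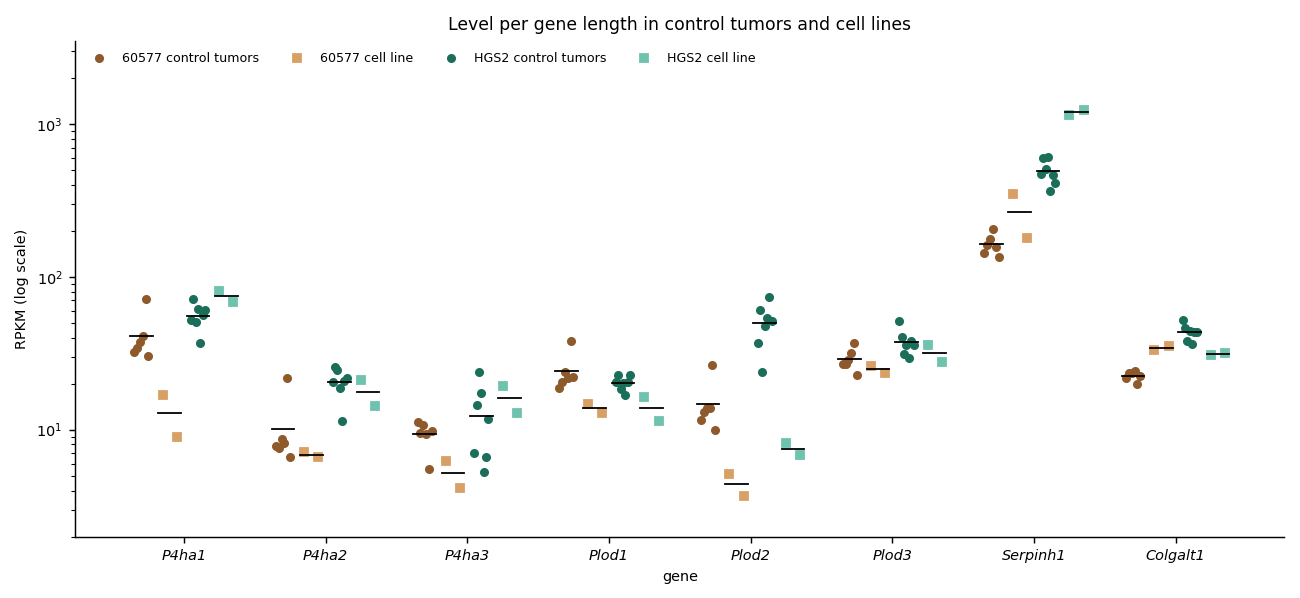
Level per gene length in RPKM (log axis) of each gene in control tumors (circles; 6 of 60577, 7 of HGS2) and cell line libraries (squares; 2 of each line), with black bars for the means. Serpinh1 is above the other 7 genes in all 4 sets, and Plod2 is lower in both cell lines than in the tumors of the same model.

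In monoculture, the HGS2 cell line had more P4ha1, P4ha2, P4ha3 and Serpinh1 than the 60577 cell line. These were 4 of 8 genes, all higher, beside 18.9% of all genes in either direction and 9.10% higher, and all 4 passed the limit of an absolute log2 value above 1, beside 15.9% of all genes. P4ha1 measured 330.3 and 282.1 CPM in HGS2 cells and 69.4 and 36.6 CPM in 60577 cells. Serpinh1 measured 2812 and 3028 CPM in HGS2 cells and 851.9 and 440.0 CPM in 60577 cells. P4ha2 measured 132.4 and 89.0 CPM in HGS2 cells and 44.5 and 41.3 CPM in 60577 cells. P4ha3 measured 60.9 and 40.3 CPM against 19.5 and 13.1 CPM. Of the 8 genes only Plod1 overlapped between the lines, so a lack of overlap does not set the called genes apart. The labels do not say whether the 2 libraries of a line come from separate cultures. The log2 differences were 2.53 for P4ha1 (SE 0.36, adjusted p = 0.0124), 2.18 for Serpinh1 (SE 0.40, adjusted p = 0.0226), 1.64 for P4ha3 (SE 0.31, adjusted p = 0.0247) and 1.37 for P4ha2 (SE 0.24, adjusted p = 0.0210). With 2 libraries a line these calls leaned on the 60577 libraries, and leaving out either of them ended calls. Each such fit holds a single library of that line, so only its log2 differences are given. Without 60577 replicate 2 they were 2.14 for P4ha1, 1.78 for Serpinh1, 1.38 for P4ha3 and 1.315 for P4ha2. Without 60577 replicate 1 they were 1.42 for P4ha2, 1.96 for P4ha3 and 2.73 for Serpinh1.

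Plod2 (0.76, SE 0.24, adjusted p = 0.0832), Plod3 (0.35, SE 0.21, adjusted p = 0.298), Plod1 (0.01, SE 0.23, adjusted p = 0.987) and Colgalt1 (-0.14, SE 0.18, adjusted p = 0.622) were not called between the lines. Plod2 was called with no filter on low counts (0.80, adjusted p = 0.0187) and by the DESeq2 Wald test (0.79, adjusted p = 0.0486). Without HGS2 replicate 2 its log2 difference was 0.94. Tumors and cells were not tested against each other, since the tables were made separately. Side by side and per gene length, Plod2 was at 7.49 ± 0.987 RPKM (SD, n = 2) in HGS2 cells and 49.6 ± 16.1 RPKM (n = 7) in HGS2 control tumors, and at 4.42 ± 1.01 RPKM and 14.8 ± 5.91 RPKM in 60577. P4ha1 was at 74.4 ± 8.27 RPKM in HGS2 cells and 55.8 ± 10.9 RPKM in HGS2 tumors, and at 12.9 ± 5.63 RPKM in 60577 cells and 41.2 ± 15.6 RPKM in 60577 tumors. The other collagen genes also differed between the lines, with 9 of 16 chains higher in HGS2 and 0 lower (median 2.49, against 1.06 for the 8 genes and -0.03 over all genes), Col6a3 at 5.15 (SE 0.82, adjusted p = 0.0167), Col1a2 at 4.87 (SE 0.73, adjusted p = 0.0148) and Col1a1 at 4.34 (SE 0.76, adjusted p = 0.0201). Lox was at 3.51 (SE 0.62, adjusted p = 0.0203) and P4hb at -0.16 (SE 0.27, adjusted p = 0.714). Fibroblast markers summed to 14938 and 7903 CPM in HGS2 cells and 1541 and 1156 CPM in 60577 cells, and epithelial markers to 1112 and 1664 CPM in HGS2 cells, where Epcam was at 0 and 0.162 CPM, and 4730 and 4994 CPM in 60577 cells.

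The genes most like each member across tumors were found by the mean of the Pearson correlations of log2 CPM within 60577 (n = 17) and within HGS2 (n = 16), over all protein-coding genes tested. These are descriptions over tumors that share treatment, depth and cell content. P4ha1 and P4ha2 were in each other's list of 3 (r = 0.92 in 60577 and 0.90 in HGS2). The list of P4ha1 held Btg3 (0.95 and 0.89) and the hypoxia-inducible Fam162a (0.93 and 0.85) besides P4ha2, and that of P4ha2 held Btg3 (0.94 and 0.84) and the glycolytic enzyme Pgk1 (0.94 and 0.83). Plod1, which followed both in 60577 (r = 0.93 with P4ha1 and 0.92 with P4ha2), did so less in HGS2 (0.28 and 0.29), and its nearest genes were Luzp1 (0.85 and 0.87), Sap30 (0.91 and 0.77) and Mad2l2 (0.92 and 0.74). Plod3 was closest to Efemp2, an elastic fiber protein (0.91 and 0.88), Plaur, the urokinase receptor (0.86 and 0.92), and Zfand2a (0.92 and 0.85). Serpinh1 was closest to Arpin (0.93 and 0.78), Clns1a (0.85 and 0.82) and Ostc, a subunit of the oligosaccharyltransferase (0.95 and 0.71). The lists of Plod2 (Map2k1, Bhlhe40 and Irf2bpl, mean r of 0.74 to 0.76), P4ha3 (Masp1, Abcc3 and Mafg, 0.75 to 0.80) and Colgalt1 (Ch25h, Clip2 and Specc1, 0.78 to 0.81) had lower values. Exons of Plod3, Colgalt1 and Plod2 overlap genes on the opposite strand by 529, 495 and 346 bp (Znhit1, Unc13a and Gm38391), and the libraries were strand-specific.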

How the data were processed

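Strand-specific, ribosomal RNA-depleted libraries of 34 tumors and 4 cell line samples were read. The authors trimmed reads with Trim Galore 0.6.5, mapped them with STAR 2.7.0f to GRCm38 (mm10) and quantified genes with RSEM, and they deposited expected counts, neither filtered nor normalized. These were rounded here. Genes with at least 1 CPM in 25% of libraries were kept, normalized by TMM, and each contrast used the two-sided quasi-likelihood test of edgeR 4.0.16 in R 4.3.3 with Benjamini-Hochberg adjustment over all genes kept, with 5 groups of each model in one fit and both models in one fit for differences between them. A gene was called at an adjusted p below 0.05. RPKM used the union of exons in GENCODE M21. Log2 CPM used a prior count of 2.

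The members and lists were chosen with earlier results of these data known, so no list is independent evidence. The genes named were the 8 members, Col1a1, Lox and P4hb, the 2 called genes of a pathway list with the largest change, and the 3 genes most like each member. Libraries of a group are separate samples by label, and each p-value sets a difference against the spread between such samples. Nothing ties cell line libraries to separate cultures, so the p-values of the lines may leave out the spread between cultures. No pair of libraries within a group agreed within counting noise. The method was tested on simulated data. Alternatives used DESeq2 1.42.0, limma 3.58.1 (voom), other filters, a length and GC offset, a replicate block, all 17 HGS2 tumors and each library left out. Added after the data were seen was a fit without 3 libraries with over 10000 CPM of acinar genes. Figures used matplotlib 3.10.9.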

Additional observations from a re-analysis of the deposited data

Results flagged for a closer look

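The response at TP2 differed between the models for Plod1 (difference of log2 fold changes 1.60, adjusted p = 0.00437), P4ha1 (1.27, adjusted p = 0.0409) and P4ha2 (1.93, adjusted p = 0.0281) by the interaction test of edgeR. All 3 fell in 60577 and were not called in HGS2. Without 60577 TP2 control replicate 2 only Plod1 was called, beside 2.83% of all genes in place of 10.3%. With all 17 HGS2 tumors P4ha1 was not called (adjusted p = 0.0753), and of all genes 1054 of 16300 were, in place of 1678 of 16241. Colgalt1 in HGS2 TP2 control replicate 2, at 157.9 CPM, was far from the other 3 controls, which lay between 187.2 and 190.7 CPM. That library had the highest summed level of pancreatic acinar genes, and the part of those genes in the value was not tested. It was the only such gap among 32 groups of 4 values tested (8 genes in 4 groups), a test that picks about 1 in 20 groups by chance.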

How the results depend on the processing

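The directions of called genes did not reverse under any alternative run. In 60577, the count of the 8 genes called was 2 at TP1 and became 0 with no filter on low counts, 1 with filterByExpr, 1 with limma-voom, 1 with the length and GC offset, 0 in one fit of both models and 0 with the limit of an absolute log2 fold change above 1 (0 to 2 when a tumor was left out), while of all genes 5410 of 16241 were called in the reported fit, 4965 of 30786 with no filter, 5711 of 18990 with filterByExpr, 5235 with limma-voom, 5597 with the offset and 2873 in one fit of both models. At TP2 it was 5 and became 3 with that limit (4 to 6 with a tumor left out). At TP3 it was 5 and became 3 in one fit of both models (4 to 6), where 6439 in place of 8340 of all genes were called. Between treated TP1 and TP2 it was 5 and became 1 with the limit, 2 in one fit of both models and 3 in a fit of the compared groups only (2 to 5), while the genes called of all 16241 went from 3133 to 652 and 324 in these fits, and between treated TP2 and TP3 it was 2 and became 0 with the limit and 1 with no filter, with filterByExpr, in one fit of both models and in a fit of the compared groups (0 to 2), while of all genes 5677 became 4574, 5873, 2995 and 3575 in these last 4 fits. For HGS2 against 60577 controls it was 5 and became 3 with the limit (4 to 6), for the difference at TP2 it was 3 and became 1 with limma-voom (1 to 3; 1467 in place of 1678 of all genes), and for cell lines it was 4 (0 to 5 with a library left out, where the single library of its line was assumed to vary like the other line). In the 6 comparisons within HGS2 the count of the 8 genes stayed at 0, while of all genes 1 was called at TP2 in a fit of the compared groups, and 3 at TP3 and 1 between treated TP2 and TP3 in one fit of both models. The cause of these differences was not tested.

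Replicate numbers are shared between groups, but same-numbered tumors did not deviate together on average. The mean correlation of deviations was -0.035 over 31 pairs in 60577 and -0.025 over 27 pairs in HGS2. Single pairs ranged from -0.418 to 0.318 in 60577 and from -0.488 to 0.367 in HGS2. The labels do not say whether any of these tumors share more than a number. With the replicate block the count was 1 at TP1 and 3 between treated TP1 and TP2 in 60577, and with the block and the length and GC offset it was 0 and 3. Of all genes, 5028 were called at TP1 and 1526 between treated TP1 and TP2 with the block, and 5185 and 1539 with both. The block left the other counts of the 8 genes within 1.5 times, although of all genes it called 5036 in place of 8366 between the control tumors of the models, 862 in place of 1678 in the difference at TP2 and 158 in place of 288 in that at TP1.

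Of the log2 fold changes of single genes, 102 alternative values lost a call and 16 gained one, 40 that were never called moved by more than 1 standard error, and 2186 did neither. P4ha2 at TP1 was among those that gained a call, in the fit of the compared groups. Without the libraries rich in acinar genes, 6 of 8 genes were called between controls (8578 of all 16241 genes) and 3 in the difference at TP2 (2134 of all genes). Groups of 3 or 4 tumors limit what can be seen, and in HGS2 the standard error of P4ha3 reached 0.799.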
